A study of Mus musculus with 6 samples.

Results

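The genes described here are Ido1, Sh3rf2, Nexn, Strip2, Gpr149, Lrrc10b, Actn2, Coch, Hpca and Dclk3, 10 genes grouped as markers of the striatum that lie outside dopamine signalling. They were read through every probe set whose single annotated gene symbol is one of these names, which gave 12 probe sets of the 45037 that are not array controls. The comparison is between amygdala tissue of 3 mice fed a zinc diet (replicates 3, 7 and 10 in the labels) and of 3 mice fed a control diet (replicates 1, 9 and 11). All 6 were male 129S1/SvImJ mice (S1) aged 8 to 10 weeks, an inbred strain known for poor fear extinction, and all had gone through fear extinction training 2 h before the tissue was taken. The labels call the diet "ZnR" and "Zn" and give no zinc content, so the direction in which its zinc differed from that of the control food is not known here. The arrays belong to a study of dopamine and histone deacetylase inhibitors in lasting suppression of fear, and ask which amygdala transcripts differ with diet once extinction has been trained. Each mouse gave 1 Affymetrix Mouse430_2 array, and values are log2 probe set levels.

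The striatum consists mostly of medium spiny projection neurons, which are inhibitory neurons that receive glutamate and dopamine input. Parts of the amygdala, among them the central nucleus and the intercalated cell clusters, share embryonic origin and many transcripts with these neurons, and the amygdala lies against the caudal striatum. The 10 genes belong to different families: an enzyme of tryptophan breakdown, scaffold and complex proteins, an orphan receptor, actin-binding proteins, a calcium sensor, a kinase, a leucine-rich repeat protein and an extracellular matrix protein. The genes were selected on their diet differences in these same 6 arrays, so those differences are given as a description with standard errors and without p-values.

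The name under which the genes were grouped calls them low-level, and the arrays bear this out for only some of them. Probe sets for odorant and vomeronasal receptors, which are not expected to be transcribed in amygdala, served as a gauge of background: the 78 such probe sets had a median control level of 2.08, and 95% lay at or below 3.03. The dimmer of the Gpr149 probe sets, with a control mean of 2.70, was within that range. Ido1, Nexn, Sh3rf2, Lrrc10b and the brighter Gpr149 probe set had control means of 3.49 to 3.87, above 3.03. Those means were above that of 42.6% (Ido1) to 47.7% (Sh3rf2) of all probe sets. Actn2 (5.74) and Coch (7.09) were intermediate. Strip2 (7.90), Dclk3 (9.89) and the probe sets of Hpca (9.50 and 11.6) were well above background, and the brighter Hpca probe set had a control mean above that of 96.4% of all probe sets. Probe sets differ in binding strength, so these positions say where a probe set lies in the range of the arrays and not which transcript is more abundant.

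**Figure D1:**
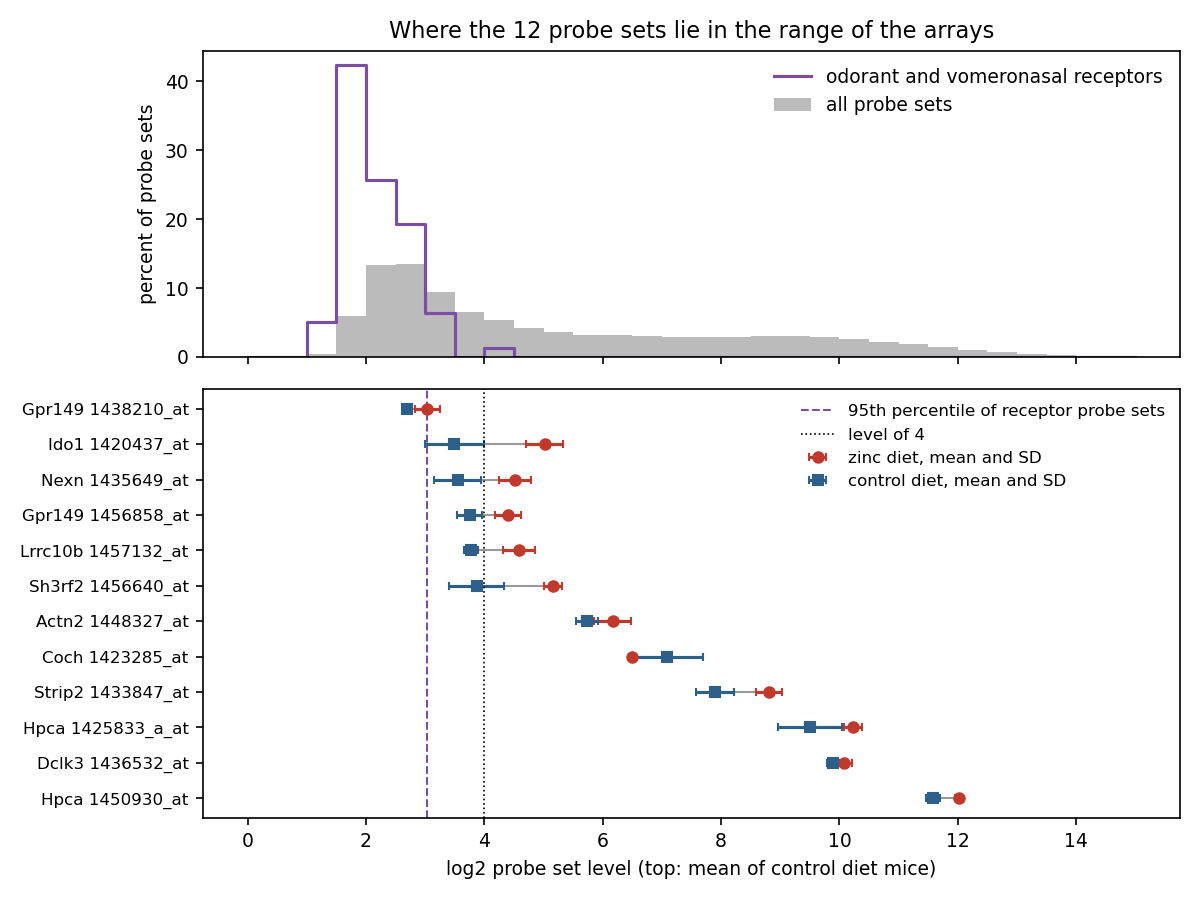
Top, distribution of the mean log2 level in control diet mice over all probe sets (grey bars) and over the 78 odorant and vomeronasal receptor probe sets (line), as percent of probe sets; bottom, mean and SD (n = 3 mice each) of the 12 probe sets in zinc diet mice (circles) and control diet mice (squares). The 6 probe sets with control means under 4 sit in the lower part of the range, and only 1 of the 12, that of Coch, has its zinc diet mean to the left of its control diet mean.

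Regulatory sequence was at hand for 5 of the 10 genes (Actn2, Coch, Hpca, Lrrc10b and Strip2), as 7 windows of 300 bases from RefSeq on GRCm38.p6, each reaching from 250 bases before to 50 bases after an annotated start. The windows of Strip2 (chr6:29916763-29917062, plus strand) and Lrrc10b (chr19:10457398-10457697, minus strand) are shown because both transcripts were higher in zinc diet mice, the one from a high and the other from a low control level. The window of Coch (chr12:51593091-51593390, plus strand) is shown because Coch was the gene that ran the other way. Each is written 5′ to 3′ on the gene's strand, and capitals mark matches on either strand to the GC box GGGCGG, the CCAAT box CCAAT, the cAMP response element half-site TGACG, the TATA box TATAAA or the E-box CACGTG.
Strip2: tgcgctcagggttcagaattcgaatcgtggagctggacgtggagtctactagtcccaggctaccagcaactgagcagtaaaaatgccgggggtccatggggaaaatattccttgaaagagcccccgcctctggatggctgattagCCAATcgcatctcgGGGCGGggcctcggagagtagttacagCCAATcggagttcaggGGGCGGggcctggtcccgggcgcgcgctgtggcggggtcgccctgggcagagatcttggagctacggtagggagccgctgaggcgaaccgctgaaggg
Lrrc10b: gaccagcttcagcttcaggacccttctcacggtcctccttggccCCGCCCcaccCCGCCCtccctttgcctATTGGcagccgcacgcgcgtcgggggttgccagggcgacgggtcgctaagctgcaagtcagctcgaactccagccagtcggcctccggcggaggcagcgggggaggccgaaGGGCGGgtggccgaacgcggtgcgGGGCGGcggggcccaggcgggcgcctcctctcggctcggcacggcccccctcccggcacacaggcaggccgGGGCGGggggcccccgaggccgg
Coch: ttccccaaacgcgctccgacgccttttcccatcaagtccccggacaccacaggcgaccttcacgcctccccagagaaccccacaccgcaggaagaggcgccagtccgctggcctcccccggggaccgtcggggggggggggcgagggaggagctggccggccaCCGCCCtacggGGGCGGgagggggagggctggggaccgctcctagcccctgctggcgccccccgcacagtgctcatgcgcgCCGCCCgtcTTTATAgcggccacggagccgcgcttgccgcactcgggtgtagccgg
These windows were rich in G and C, at 62.0% for Strip2, 76.3% for Lrrc10b and 73.7% for Coch, against a median of 52.7% over 32851 windows. GC boxes were present in all 3, and in 35.7% of all windows. CCAAT boxes were present in Strip2 (2 matches) and Lrrc10b (1 match) and in 37.4% of all windows. Coch held a TATAAA match, as did 13.6% of all windows. That match was on the opposite strand at position 3, after the annotated start and not before it. The half-site TGACG, present in 20.8% of all windows, was found in none of the 7 windows of these genes. E-boxes (7.15% of all windows) were found in 1 window each of Actn2 (2 matches) and Hpca (1 match).

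Of the 12 probe sets, 11 had a higher mean in zinc diet mice and 1, that of Coch, a lower one. In 10 of the 12 every zinc diet mouse was above every control diet mouse, in 0 every one was below, and in the remaining 2 the diets overlapped. Over all probe sets without a filter, 5.27% were separated upward and 5.57% downward in this way, and since the genes were selected on this contrast, nothing is read from these shares. The median log2 difference over the 12 was 0.69, beside 0.0091 over the 22877 probe sets with a mean level of at least 4. In that larger set limma gave 0 calls (0%) at an adjusted p of 0.05, 1460 (6.38%) had an unadjusted p under 0.05, 6.66% had every zinc diet mouse above every control diet mouse, and 5.33% had every one below.

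Ido1 encodes indoleamine 2,3-dioxygenase, which carries out the first and rate-limiting step from tryptophan to kynurenine and is induced by interferon gamma in immune cells. Its log2 level was 4.72, 5.35 and 4.99 in zinc diet replicates 3, 7 and 10, against 3.02, 4.0 and 3.45 in control diet replicates 1, 9 and 11. The lowest zinc diet mouse was 0.71 above the highest control mouse, and the lowest control mouse sat at the level that bounds 95% of the receptor probe sets. The difference of means was 1.53 ± 0.27 (SE, log2), or 2.88-fold, the largest of the 12.

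Sh3rf2 encodes a RING and SH3 domain protein related to the JNK pathway scaffold POSH. Its level was 5.15, 5.33 and 5.02 in zinc diet replicates 3, 7 and 10, against 3.36, 4.26 and 4.0 in control diet replicates 1, 9 and 11. The gap between the closest mice of the diets, 0.77, was the widest among the 12 probe sets. The difference was 1.30 ± 0.23 (SE), or 2.45-fold.

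Strip2 encodes a striatin-interacting protein of the STRIPAK complexes, which join protein phosphatase 2A with kinases of the STE20 family. Its level was 8.61, 9.04 and 8.79 in zinc diet replicates 3, 7 and 10, against 8.28, 7.68 and 7.74 in control diet replicates 1, 9 and 11. The diets did not overlap, and control replicate 1 was the highest of the control mice here, in contrast to Ido1 and Sh3rf2, where it was the lowest. The difference, 0.92 ± 0.19 (SE) or 1.89-fold, was similar in size to that of Nexn although the control level was far above background.

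Gpr149, an orphan G protein-coupled receptor gene, was read by 2 probe sets. The brighter one gave 4.35, 4.64 and 4.22 in zinc diet replicates 3, 7 and 10, against 3.55, 3.73 and 3.97 in control diet replicates 1, 9 and 11, a difference of 0.65 ± 0.15 (SE). The dimmer one gave 3.18, 3.14 and 2.79 in zinc diet mice, against 2.75, 2.68 and 2.67 in control mice, a difference of 0.34 ± 0.11 (SE). Both were higher in every zinc diet mouse, but the dimmer one lay at background: its control mean of 2.70 was below the 3.03 that bounds 95% of the receptor probe sets, its zinc diet mean of 3.04 was level with that bound, and the closest mice of the diets were 0.046 apart.

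Nexn and Actn2 encode actin-binding proteins known from the Z-disc of striated muscle: nexilin, which binds actin filaments, and an alpha-actinin, which crosslinks them and in neurons is also found in dendritic spines. Nexn stood at 4.53, 4.77 and 4.23 in zinc diet replicates 3, 7 and 10, against 3.13, 3.93 and 3.58 in control diet replicates 1, 9 and 11. The diets did not overlap, and the difference was 0.96 ± 0.22 (SE). Actn2 stood at 6.37, 6.33 and 5.81 in zinc diet mice, against 5.55, 5.73 and 5.93 in control mice. Zinc diet replicate 10 lay below control replicate 11, so the diets overlapped, and the difference of 0.43 ± 0.18 (SE) is of the order of the spread between mice. Of 17 striated muscle genes on the array, 14 were under a level of 4 on all 6 arrays, among them Ckm, the muscle creatine kinase gene, and Ttn, the titin gene. The 3 tested were Myh7, Acta1 and Tnnt2. Myh7, a myosin heavy chain gene and the brightest of the 17, ran opposite to Nexn and Actn2: it stood at 9.27, 9.11 and 8.77 in zinc diet replicates 3, 7 and 10, against 9.53, 9.62 and 9.62 in control diet replicates 1, 9 and 11. Every zinc diet mouse was below every control mouse, as in 5.55% of all genes, and the difference was -0.54 ± 0.13 (SE, limma adjusted p = 0.56, unadjusted p = 0.0055). For Acta1, a skeletal muscle actin gene (-0.14 ± 0.14 SE), and Tnnt2, a troponin T gene (0.23 ± 0.15 SE), the diets overlapped on the brightest probe sets. The summed log2 level of the 17 was 61.9 to 63.6 in zinc diet mice and 63.1 to 64.1 in control mice.

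Hpca encodes hippocalcin, a neuronal calcium sensor that moves to membranes when calcium binds. It was also read by 2 probe sets. The brighter one, which was also the brightest of the 12, gave 11.94, 12.05 and 12.06 in zinc diet replicates 3, 7 and 10, against 11.47, 11.57 and 11.70 in control diet replicates 1, 9 and 11. Its difference was 0.44 ± 0.088 (SE), and the diets did not overlap. The dimmer one gave 10.27, 10.06 and 10.37 in zinc diet mice, against 8.93, 10.01 and 9.57 in control mice. Here the closest mice of the diets were 0.048 apart and the difference was 0.73 ± 0.26 (SE), which was 0.44 without control replicate 1.

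Dclk3 encodes a kinase of the doublecortin-like family. Its level was 10.00, 10.23 and 9.98 in zinc diet replicates 3, 7 and 10, against 9.77, 9.96 and 9.95 in control diet replicates 1, 9 and 11. The diets were apart by 0.019 at their closest, and the difference of 0.18 ± 0.10 (SE), or 1.13-fold, was the smallest in size of the 12. Leaving out zinc diet replicate 7 gave 0.097, and leaving out control replicate 1 gave 0.11.

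Lrrc10b encodes a leucine-rich repeat protein. Its level was 4.34, 4.87 and 4.54 in zinc diet replicates 3, 7 and 10, against 3.76, 3.90 and 3.66 in control diet replicates 1, 9 and 11. The diets did not overlap, and the difference was 0.81 ± 0.15 (SE), or 1.75-fold. The control mice spread less (SD 0.12) than they did for Ido1 (SD 0.49), Sh3rf2 (SD 0.46) or Nexn (SD 0.40), at similar control levels.

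Coch encodes cochlin, a secreted matrix protein known for its abundance in the inner ear. Its level was 6.53, 6.48 and 6.50 in zinc diet replicates 3, 7 and 10, against 6.40, 7.48 and 7.39 in control diet replicates 1, 9 and 11. The zinc diet mice were nearly equal (SD 0.025, n = 3), while the control mice split, with replicate 1 below every zinc diet mouse and the other control mice well above them. The difference was -0.59 ± 0.27 (SE), with overlap, and it was -0.94 without control replicate 1. Choroid plexus and ependymal markers averaged 8.83 in control replicate 9 and 5.52 to 6.31 in all other mice of either diet, among them 5.87 in control replicate 11. Their part in the Coch difference was not tested. Vit, whose product vitrin is a relative of cochlin, was named after its values were seen: it stood at 3.04 ± 0.21 in zinc diet mice, against 3.73 ± 0.075 in mice on the control diet (SD, n = 3 each), without overlap, and was under the filter of the test.

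**Figure D2:**
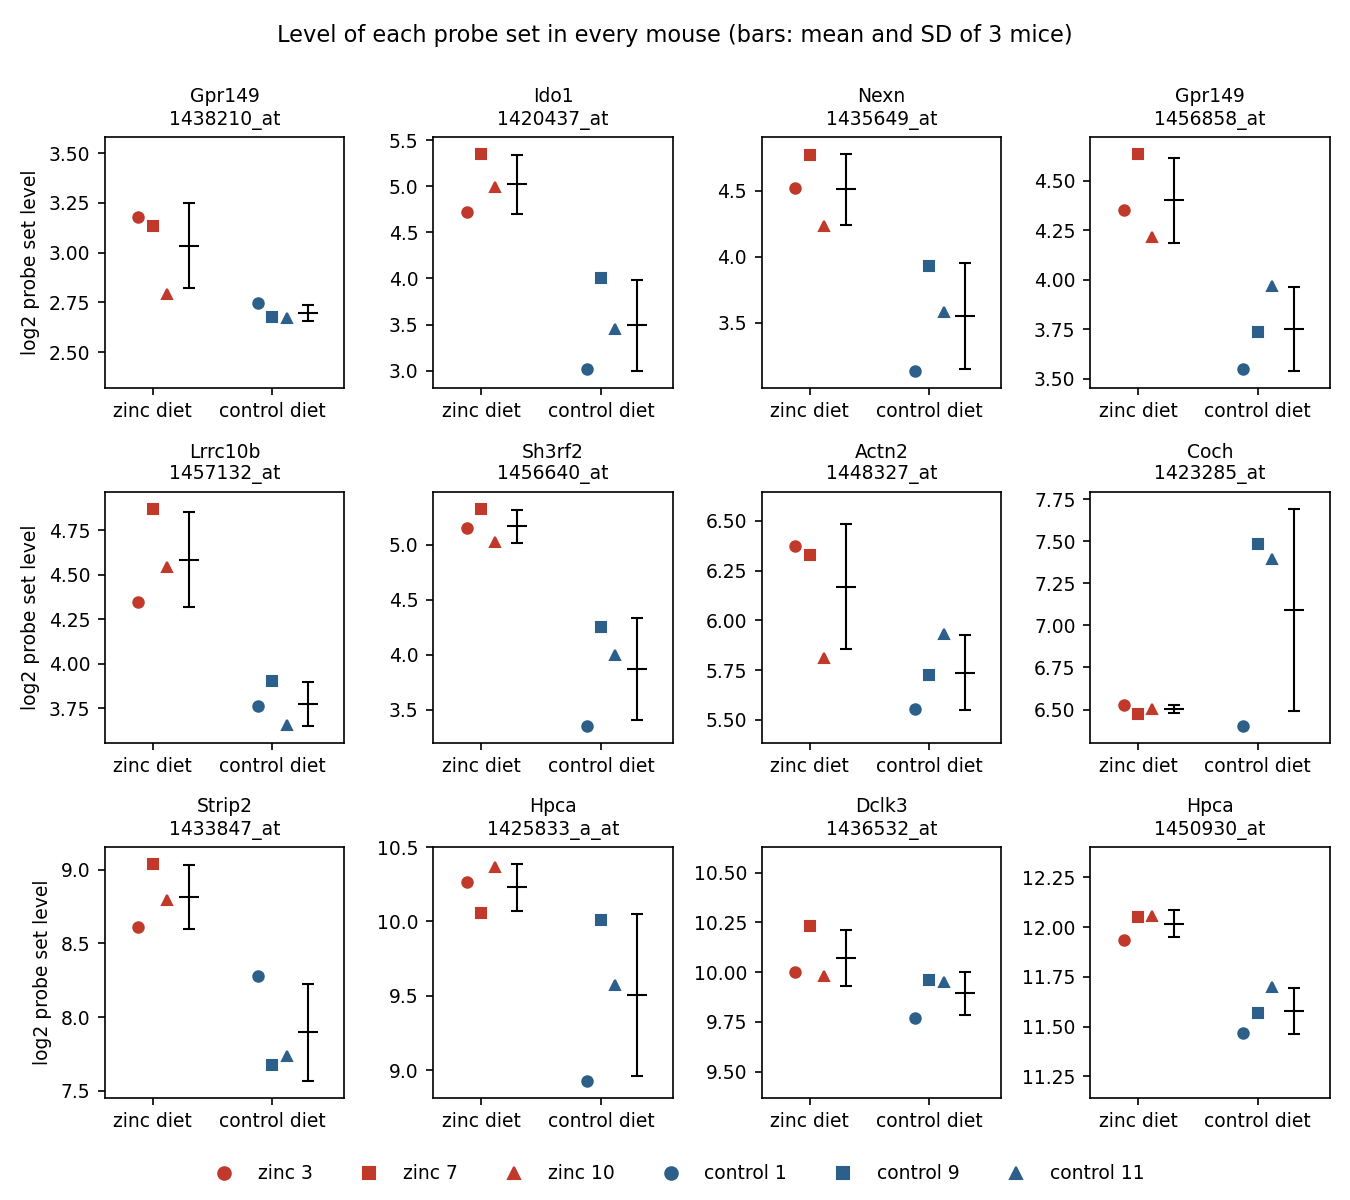
Log2 level of each of the 12 probe sets in every mouse, ordered by control level, with zinc diet mice (red) left of control diet mice (blue); bars give mean and SD of 3 mice, symbols mark single mice, and each panel has its own level axis. The diets are apart in 10 panels and overlap for Actn2 and Coch, and control replicate 1 is the lowest control mouse in 9 panels.

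The mice of a diet were ordered alike across many of these probe sets. Zinc diet replicate 7 was the highest zinc diet mouse in 7 of the 12, and control replicate 1 was the lowest control mouse in 9. Averaged over the 12, the log2 level was 6.66, 6.86 and 6.61 in zinc diet replicates 3, 7 and 10, against 5.83, 6.24 and 6.14 in control diet replicates 1, 9 and 11. The averages did not overlap, and the control mouse closest to the zinc diet mice was replicate 9. Without control replicate 1 the median difference over the 12 was 0.49.

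The log2 difference was related to the control level only loosely. The 6 probe sets with a control mean under 4 differed by 0.34 to 1.53, with a median of 0.89. The 3 between 4 and 8 were Strip2 (0.92), Actn2 (0.43) and Coch (-0.59), and the 3 at 8 and over were the Hpca probe sets (0.73 and 0.44) and Dclk3 (0.18). Across the 12 probe sets, the control mean and the difference had a Pearson r of -0.39 and a Spearman rho of -0.36, given as a description, since all points come from the same 6 arrays and the control values enter both axes. With the mean of all 6 arrays as the level, rho was -0.27. With the level from 1 control mouse and the difference from the others, rho was -0.39, -0.17 and -0.36 for control replicates 1, 9 and 11. Over the 22877 probe sets tested, rho was 0.049.

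The relation changed with the handling of low values. With only the probe sets whose mean was at least 4, rho was -0.61, though 5 of those 11 passed only through the zinc diet mice. With 1 probe set per gene it was -0.65. A floor of 4 ties or shrinks the low values by construction, so it cannot tell what the slope rests on. With every value under 4 set to 4, rho was 0.0036 and the median difference was 0.47. On that scale Sh3rf2 differed by 1.08, Ido1 by 1.02, Strip2 by 0.92, Lrrc10b by 0.59, Nexn by 0.51 and the brighter Gpr149 probe set by 0.40, while the dimmer one, with all 6 values under 4, had no difference left. Within a gene the order ran both ways: the dimmer Hpca probe set had the larger difference, and the dimmer Gpr149 probe set the smaller. On the antilog scale the relation had the opposite sign (rho 0.65, r 0.76). The units there are antilogs of the processed levels and not measured fluorescence. There the brighter Hpca probe set differed by 1083 units, from means of 4147 in zinc diet mice, against 3064 in mice on the control diet. Ido1 differed by 21.3 units, from 33.0 in zinc diet mice, against 11.7 in mice on the control diet.

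Taken as 1 band, probe sets under a control level of 4 had no larger SD of the diet difference than the bands above it. Among the 22143 probe sets with a control mean under 4, diet differences had an SD of 0.13, and 0.032% were higher by at least 1 log2 unit. Ido1 and Sh3rf2 were the 2 of these genes to exceed that size. The genes were selected on this contrast, so nothing is read from that share. The SD was 0.20 among 12794 probe sets between 4 and 8 and 0.14 among 10100 at 8 and over. Within the band under 4 the differences widened with level. The upper end of the middle 95% was 0.21 for control means from 2 to 3 and 0.30 from 3 to 4. It was 0.37 from 4 to 5 but 0.23 from 10 to 11, so the range from 3 to 4 was wider than some higher ones. Ido1, Nexn, Sh3rf2, Lrrc10b and the brighter Gpr149 probe set lay in the range from 3 to 4. None of the 78 receptor probe sets, with a median control level of 2.08, differed by 0.5 or more. The spread of Ido1 between control mice (SD 0.49) was larger than the median SD between control mice of 0.11 in its band.

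**Figure D3:**
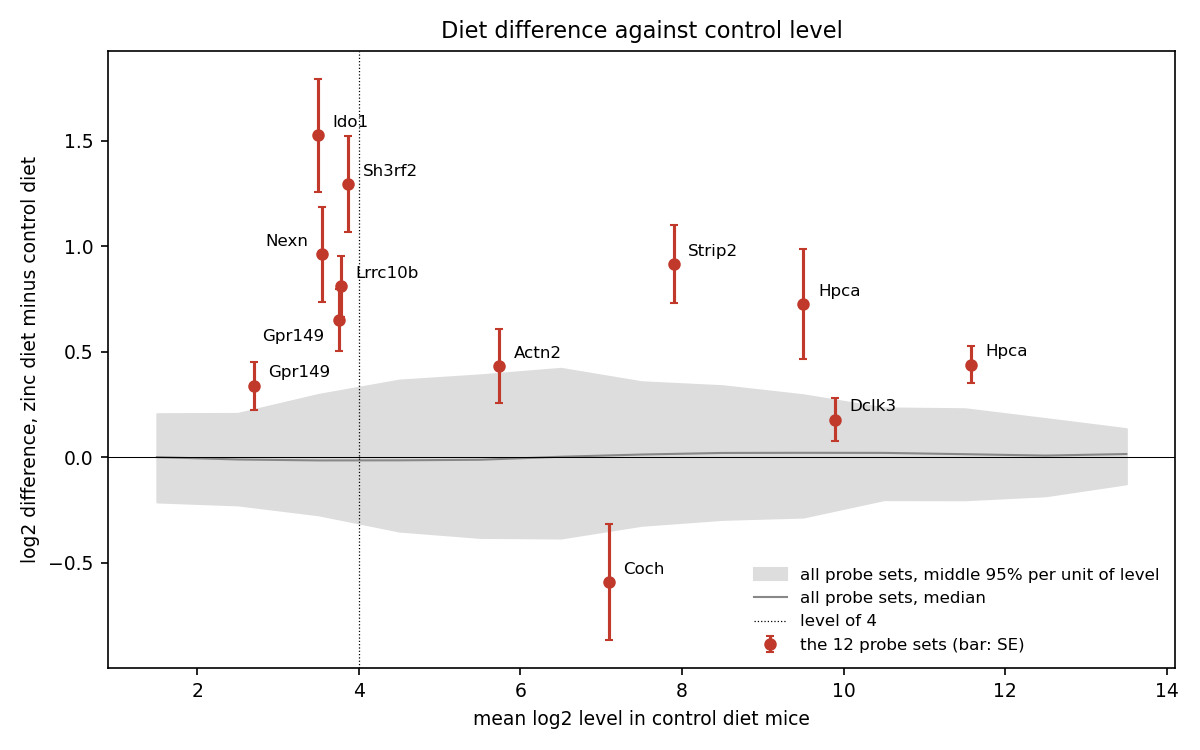
Log2 difference (zinc diet minus control diet, with SE) of the 12 probe sets against their mean log2 level in control diet mice; the grey band holds the middle 95% of all probe sets in each unit of level. Dclk3 is within the band, Coch is below it, and the other points lie above it at low and high levels alike, Actn2 only just (0.43, where the band ends at 0.39).

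A filter on the mean level treats these genes unequally. A mean over all 6 arrays of at least 4 was reached by 11 of the 12 probe sets, the exception being the dimmer Gpr149 probe set. For 5 of the 11 (Ido1, Nexn, Sh3rf2, Lrrc10b and the brighter Gpr149 probe set) the control mean was under 4, so they passed only through the zinc diet mice, and their passing already required a difference. The other 6 had control means of at least 4, and in 4 of these (Strip2, both of Hpca, and Dclk3) every zinc diet mouse was above every control mouse. Among all probe sets this held for 5.39% with a control mean between 4 and 8 and for 7.92% at 8 and over. The genes were selected on this contrast, so nothing is read from the count.

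As groups, the families and pathways of the 10 genes lay near no difference, with list medians from -0.15 to 0.057. Of 77 tested genes in 9 lists, limma called 0 at an adjusted p of 0.05 (0% of all probe sets tested), and 6 had an unadjusted p under 0.05, 4 of them higher, beside 7.04% of 11221 genes. On the brightest probe set of each gene, the diets were apart with the zinc diet higher in 8 of the 77 and lower in 4, where 8.12% and 5.55% of genes were. Of the 8, 5 were in the STRIPAK list and 3 among the orphan receptors.

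Of the kynurenine pathway, 9 of 12 genes on the array were under 4 on all 6 arrays, and the 2 tested, Kyat1 and Kyat3, which encode kynurenine aminotransferases, differed by -0.023 ± 0.14 and -0.0018 ± 0.12 (SE). Ido2, the closest relative of Ido1, was at 2.60 ± 0.13 in zinc diet mice, against 2.86 ± 0.037 in mice on the control diet (SD, n = 3 each), which is within the background range. Every zinc diet mouse was below every control mouse there, as in 5.65% of all probe sets with a control mean under 4. Among interferon gamma response genes, 8 of 12 were under 4 throughout. Of the 4 tested, 2 were higher and 2 lower, all with the diets overlapping. The largest difference was in Ifngr2, an interferon gamma receptor gene (0.25 ± 0.21 SE, limma adjusted p = 0.89). Irf1, a transcription factor gene induced by interferon, differed by -0.11 ± 0.14 (SE, limma adjusted p = 0.93). The summed log2 level of the 12 was 46.6 to 48.3 in zinc diet mice and 47.3 to 48.8 in control mice.

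Of 15 tested STRIPAK genes, 11 were higher and 4 lower, with a median of 0.057. In 5 of the 15 the diets were apart with the zinc diet higher, where 8.12% of all genes were. No set test was run. The largest difference was in Stk26, a STE20 family kinase gene, at 8.35 ± 0.080 in zinc diet mice, against 7.77 ± 0.23 in mice on the control diet (SD, n = 3 each), 0.58 ± 0.12 (SE, limma adjusted p = 0.46). Its second probe set gave 0.50 ± 0.12 (SE). Strn, the striatin gene, differed by 0.23 ± 0.083 (SE, limma adjusted p = 0.74). Sh3rf1 and Sh3rf3, the relatives of Sh3rf2, differed by 0.022 ± 0.093 and 0.011 ± 0.13 (SE). Of 10 genes in their list the diets were apart on the brightest probe set in 1, Mapk8ip2 (-0.13 ± 0.072 SE, limma adjusted p = 0.84). Dimmer probe sets had the diets apart for Mapk8 (0.18 ± 0.11 SE), Mapk9 (0.11 ± 0.072 SE) and Mapk8ip2 (-0.27 ± 0.10 SE).

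On the brightest probe set of each gene, Hpcal1 was the 1 of 9 neuronal calcium sensors tested beside Hpca with the diets apart. It ran the other way, at 11.6 ± 0.12 in zinc diet mice, against 12 ± 0.19 in mice on the control diet (SD, n = 3 each). Its difference was -0.41 ± 0.12 (SE, limma adjusted p = 0.67). Ncald (-0.044 ± 0.078 SE) and Hpcal4 (-0.010 ± 0.071 SE) had the diets overlapping on their brightest probe sets. Another Ncald probe set had every zinc diet mouse below every control mouse (-0.18 ± 0.090 SE). The alpha-actinin genes Actn1 and Actn4 differed by -0.037 ± 0.066 and -0.16 ± 0.13 (SE). On the brightest probe sets of their list the diets were apart for Fhl1 alone (-0.24 ± 0.10 SE, limma adjusted p = 0.78). A dimmer tested probe set of Ppp1r9a also had the diets apart, with the zinc diet higher (0.15 ± 0.069 SE). Dclk1, Dclk2 and Dcx of the doublecortin family differed by 0.019 ± 0.068, -0.072 ± 0.090 and -0.11 ± 0.14 (SE) on their brightest probe sets. A dimmer Dclk1 probe set had the diets apart with the zinc diet higher (0.21 ± 0.073 SE), while on the other tested Dclk1 probe sets they overlapped. Of 19 orphan receptors tested, Gpr83 (0.44 ± 0.13 SE, limma adjusted p = 0.67) and Gpr158 (0.31 ± 0.11 SE, limma adjusted p = 0.73) had the largest differences with the diets apart. Lrrc10, listed as the relative of Lrrc10b, was not found on the array, so no family comparison was made for Lrrc10b. The 4 tested genes listed with it and Coch were Matn2, Matn4, Crim1 and Crispld2. They gave a median of -0.15, with the diets overlapping in each.

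**Figure D4:**
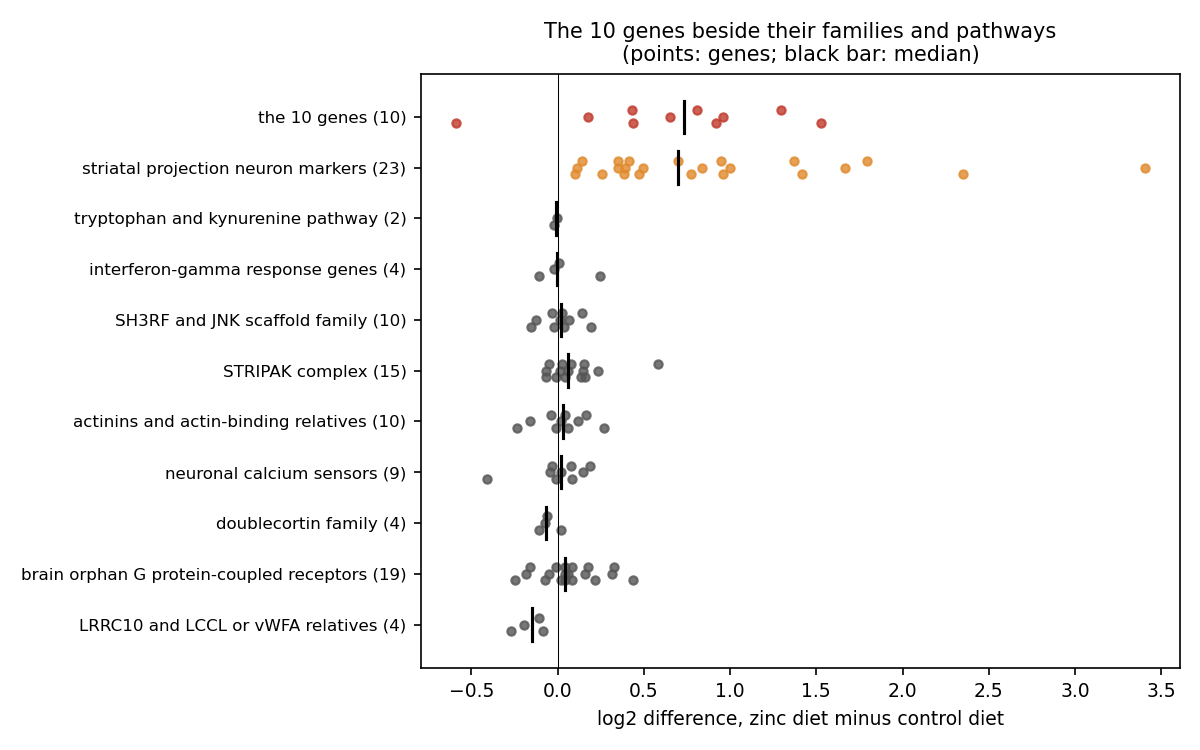
Log2 difference (zinc diet minus control diet) of each tested gene, on its brightest probe set, for the 10 genes (red), striatal projection neuron markers (orange) and 9 family or pathway lists (grey), with the number of tested genes in brackets and black bars at the medians. The medians of the first 2 lists are 0.73 and 0.70, and those of the 9 others run from -0.15 to 0.057.

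On the brightest probe set of each gene, all 23 striatal projection neuron markers tested were higher in zinc diet mice as well. In 18 of them the diets were apart, where 8.12% of all genes were, and the median difference of the 23 was 0.70. Dimmer tested probe sets of Arpp21 (-0.22 and -0.13) and Ptpn5 (-0.14) were lower, with the diets overlapping. Limma called 0 of the 23 at an adjusted p of 0.05, and 17 had an unadjusted p under 0.05. That these markers were higher was known from these same arrays. Their mean log2 level was 9.21, 9.48 and 9.18 in zinc diet replicates 3, 7 and 10, against 8.25, 8.45 and 8.47 in control diet replicates 1, 9 and 11. As with the 10 genes, zinc diet replicate 7 was highest and control replicate 1 lowest. In tissue samples more cells of a type and more RNA per cell cannot be told apart, and the part of tissue content in the diet differences of the 10 genes was not tested. Central amygdala and intercalated cell markers had 11 of 13 tested genes higher (median 0.19), with means of 9.22 to 9.28 in zinc diet mice and 8.81 to 9.18 in control mice.

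In every other marker list the diets overlapped in mean level. Myelin markers were higher in 11 of 11 tested genes (median 0.38), each on its brightest probe set. Their means were 9.20 to 9.96 in zinc diet mice, the highest in replicate 7, and 8.81 to 9.38 in control mice. Fibroblast and meningeal means were 6.47 to 6.66 in zinc diet mice and 5.76 to 7.05 in control mice. Excitatory neuron means were 8.85 to 9.08 against 8.82 to 8.89, and astrocyte means 10.4 to 10.6 in both diets. Microglia (7.57 to 7.61 against 7.57 to 7.65), endothelial and pericyte (7.31 to 7.37 against 7.21 to 7.36), hippocampal and cortical (8.59 to 8.80 against 8.40 to 8.71) and hypothalamic and thalamic markers (4.42 to 5.83 against 4.11 to 5.44) had the means given in brackets, zinc diet before control diet in each pair. Their part in the differences of the 10 genes was not tested.

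Among 11211 other genes, the profile nearest to the mean standardised profile of the 12 probe sets over the 6 arrays was that of Foxp1, a forkhead transcription factor gene, at a mean absolute distance of 0.165 standard deviations. It stood at 10.55, 10.74 and 10.49 in zinc diet replicates 3, 7 and 10, against 9.32, 10.02 and 9.94 in control diet replicates 1, 9 and 11. Next were Rgs8, a regulator of G protein signalling (0.165), the phosphatase gene Ppm1b (0.178), the homeobox gene Six3 (0.179) and Cdyl2, a chromodomain gene (0.187). Their differences were 0.84 for Foxp1, 0.52 for Rgs8, 0.11 for Ppm1b, 0.32 for Six3 and 0.36 for Cdyl2. Of the 12 probe sets themselves, that of Sh3rf2 was closest to the mean profile of the others (0.206) and that of Coch farthest from it (1.36).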

How the data were processed

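RNA from the amygdala of 6 mice (500 ng each, per the labels' protocols) was read on 1-colour Affymetrix arrays. The log2 probe set levels are those the authors deposited as 1 table; the scale was read from the values. Per the submitters' processing notes, the tools were GCRMA 2.28.0 and R 2.15.1, with no role or order; the options and any centring are not given in the sources used here. GCRMA models background by probe sequence and can stretch or compress low values. No detection, background or saturation measure was used here. Array medians lay between 4.04 and 4.09, and pairwise correlations between 0.991 and 0.996. The number of arrays limits the precision. The limma p-values set a diet difference against the spread between these mice, with the variance moderated over all probe sets tested.

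Of 45101 probe sets, 64 controls were left out. The platform annotation gave 1 symbol for 34945 probe sets, several for 932 and none for 9160; Entrez numbers matched the RefSeq table of GRCm38.p6 for 34741, with 0 symbols changed. The diet contrast was fitted by limma 3.58.1 (lmFit and eBayes, R 4.3.3) without other terms over the 22877 probe sets with a mean of at least 4, with Benjamini-Hochberg adjustment over all of them. The SE of the dimmer Gpr149 probe set comes from the fit without a filter. A gene in a list is its probe set with the highest mean. Tested on simulated data for this contrast with 22877 probe sets, limma called 70% of 100 with a true difference of 1 log2 unit and 92% of 100 with one of 2, plus 8 unchanged ones. The simulated noise was normal and independent between probe sets, and the changed ones were drawn at random. These shares therefore need not hold for the genes described here.

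The genes, the lists and the tests were chosen with earlier results of these data known. Genes named from a family list were those past the threshold, or else up to 2 with the largest difference among those with the diets apart. Close relatives of the 10 genes, further probe sets, interferon response genes and muscle genes named beyond this were chosen after their values were seen. Alternatives were quantile normalization, median centring, a floor of 4, no filter, a mean of at least 6, trend and robust eBayes, array weights, the title number as a covariate, 1 or averaged probe sets per gene, antilog means, and leaving out each mouse.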

Additional observations from a re-analysis of the deposited data

How the results depend on the processing

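The median log2 difference over the 12 probe sets was 0.69 and kept its sign under every alternative run. It was 0.47 with values under 4 set to 4, and 0.49 to 0.76 with 1 mouse left out, the lowest without control replicate 1. The diets were apart in 10 of 12 probe sets. They were apart in 9 of 12 with quantile normalization or with values under 4 set to 4, in 10 with median centring, in 9 of the 11 with a mean of at least 4 and, with 1 probe set per gene, in 8 of 10. Of those 11, 5 passed only through the zinc diet mice, so their passing already required a difference. That limits both this count and the rho given below for the same set. With 1 mouse left out they were apart in 10 to 11 of 12; the 11 without control replicate 1 include Coch, which was then lower in every zinc diet mouse, so that 10 were higher. The Spearman rho between control level and difference was -0.36; it was 0.0036 with values under 4 set to 4, where the floor ties or shrinks the values near background, -0.65 with 1 probe set per gene, and -0.61 with only the probe sets whose mean was at least 4, both of which leave out the dimmer Gpr149 probe set. It was -0.51 to -0.31 with 1 mouse left out. Of 144 alternative values for single probe sets, 139 moved by less than the SD between mice and 5, all from the floor of 4, by more. Leaving out 1 of 3 mice cannot move a mean by that SD, so those runs could not have counted as moved. As a ratio to the main difference they ran from 0.55 (Dclk3 without zinc diet replicate 7) to 1.58 (Coch without control replicate 1). In the family and pathway lists 0 genes passed under every alternative. Over all probe sets, 2 passed with a mean of at least 6, 3 with trend and robust eBayes and 1 with the title number as a covariate. No paired analysis was possible because the diets share no replicate number. Without detection calls, the arrays cannot tell levels under about 4 from background with certainty, which limits the sizes given for Ido1, Nexn, Sh3rf2, Lrrc10b and Gpr149.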
